A study of Mus musculus with 30 samples.

Results

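The angiogenic factors of gut stroma described here are 9 secreted ligands, chosen by name and with earlier results of these data known: the VEGF ligands *Vegfa*, *Vegfb*, *Vegfc* and *Vegfd*, the angiopoietins *Angpt1* and *Angpt2*, the angiopoietin-like genes *Angptl2* and *Angptl4*, and *Hgf*. They are 9 of 32316 genes with counts, and all 9 were among the 17542 genes that passed the filter on low counts. The study sorted mesenchymal cells from the lamina propria of mouse small intestine (SI) and colon and sequenced their RNA in bulk. There were 10 populations with 3 libraries each, and per the labels the intestines came from 3 individual mice. All mice were untreated C57BL6/Nrj adults aged 8 to 10 weeks.

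VEGF-A acts on blood endothelium through VEGF receptors, whereas VEGF-C and VEGF-D act mainly on lymphatic endothelium. Angiopoietins bind the endothelial receptor Tie2, which angiopoietin 1 activates and angiopoietin 2 can block, so that vessels are held stable or loosened. Hepatocyte growth factor (HGF) is a stromal ligand of the receptor Met on epithelium and endothelium, and each intestinal villus carries capillaries and a lymphatic vessel within this stroma.

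Dead, lineage-positive, CD31+, BP3+, EpCAM+ and NCAM hi cells had been gated out of every population. Pericytes of both tissues were PDGFRα- ESAM-1+ PDPN-, and SI smooth muscle cells (SMC) were PDGFRα- ESAM-1+ PDPN+. Among ESAM-1- fibroblasts (FB) of the SI, the gates were PDGFRα hi CD34- (PDGFRα hi FB), PDGFRα int CD34- (Fgfr2+ FB) and PDGFRα int CD34+ (CD34+ FB, labelled as Igfbp5+ and CD81+ FB together). Colonic ESAM-1- FB were sorted as PDPN+ CD34- (PDGFRα hi FB), PDPN hi CD34+ CD90- (Fgfr2+ FB), PDPN int CD34+ CD90- (CD81+ FB) and CD34+ PDPN hi CD90+ (CD90+ FB). Library totals ran from 2245052 estimated counts, in replicate 3 of SI Fgfr2+ FB, to 19096945, with a median of 9601683.

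The labels were compared with defining markers in CPM, counts scaled to library size. In PDGFRα hi FB, *Pdgfra* was 6207, 6854 and 6491 CPM in the SI and 2389, 2399 and 2546 in the colon. *Rgs5* marked pericytes, at 39052, 21877 and 34349 in the SI and 31047, 42918 and 26512 in the colon, and *Myh11* was 12019, 9292 and 13193 in SMC. Each of these markers had its highest mean in the labelled population of its tissue. *Fgfr2* was 1469.6, 1983 and 1489.5 in SI Fgfr2+ FB and 504, 458 and 457 in colonic Fgfr2+ FB, while colonic CD90+ FB had 324, 441 and 333. *Cd81* was 389, 457 and 273 in colonic CD81+ FB, and *Thy1*, which encodes CD90, was 255, 176 and 159 in colonic CD90+ FB, though 119.8, 426 and 118 in SI and 47.4, 138 and 241 in colonic pericytes. The summed pericyte markers (9 genes) were 4163, 4409.8 and 3758 CPM in SI CD34+ FB and 2467, 2203 and 2215 in SI Fgfr2+ FB, with *Rgs5* most abundant. In SI PDGFRα hi FB they were 3183, 3732 and 3112, with *Abcc9* most abundant (1784 CPM by mean, *Rgs5* 260.3). *Kcnj8*, also on that list, had a mean of 569 CPM in SI PDGFRα hi FB and 275 in SI pericytes. The sums of these SI FB lay above the highest sum of the colonic FB libraries, 1021, and their part in the comparisons of pericytes with FB was not tested.

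Pericytes of both tissues had more *Angpt2*, less *Vegfa* and less *Hgf* than the mean of the FB populations of their tissue. SI pericytes also had more *Vegfb* and less *Vegfd*, and colonic pericytes less *Vegfc*. A gene was called where its adjusted p over all 17542 genes was under 0.05 and its log2 fold change over 1.5 in size. Fold changes are given on the log2 scale ± SE. This SE was derived from the test, as the size of the fold change over the square root of its F statistic. In the SI, 5 of 9 members were called, against 16.6% of all genes. In the colon the count was 4 of 9, against 16% of all genes. Median log2 fold changes of the members were 0.03 in the SI and -2.13 in the colon, and those of all genes -0.02 and 0.01. The SI count was 3 without pericyte replicate 1 or 3 or CD34+ FB replicate 2 or 3, and 2 without pericyte replicate 2. It was 4 with RLE scaling, with length-scaled TPM as counts or with only the populations compared, and 6 by DESeq2. The colonic count was 7 by DESeq2, 6 without pericyte replicate 2 and never under 4, and all 9 members had an unadjusted p under 0.05 there, against 7 in the SI, where 31.4% and 32.6% of all genes did. In bulk RNA, fewer cells of a type and less RNA per cell cannot be told apart.

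**Figure D1:**
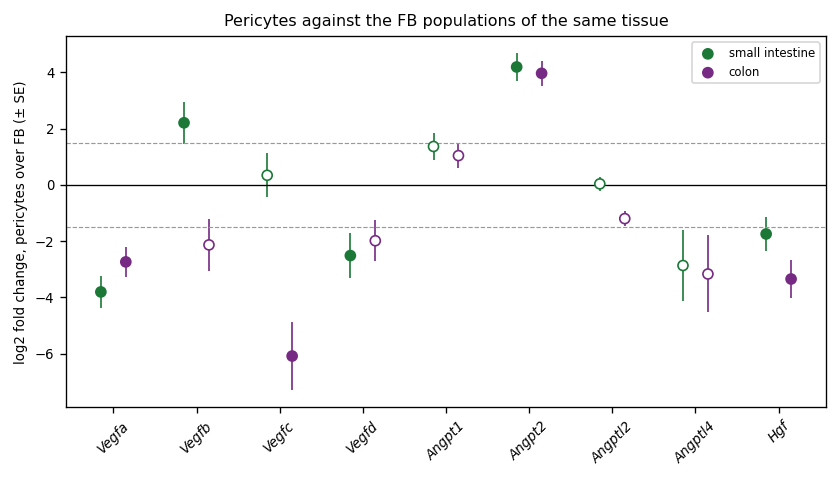
Log2 fold change of each of the 9 genes in pericytes over the mean of the FB populations of the same tissue (vertical axis, ± SE; dashed lines at 1.5 in either direction), SI in green and colon in purple; filled points were called. *Angpt2* lies at 4.19 in the SI and 3.96 in the colon, *Vegfa* at -3.81 and -2.74, and *Vegfc* at 0.34 and -6.09.

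*Vegfa* (GRCm38 chr17:46016993-46032369, minus strand), the main ligand of blood vessel growth, was highest in PDGFRα hi FB. The CPM values of PDGFRα hi FB were 163, 191 and 232 in the colon and 102, 154 and 203 in the SI, and SI Fgfr2+ FB had 122, 125 and 92.7. In SI CD34+ FB they were 25.0, 32.7 and 44.4, and in the colon 47.8, 176 and 57.0 in CD81+ FB, 72.1, 75.9 and 49.9 in CD90+ FB and 54.3, 35.9 and 32.1 in Fgfr2+ FB. Pericytes had 1.93, 6.69 and 9.10 in the SI and 15.6, 3.40 and 18.5 in the colon, and SMC 20.7, 13.3 and 12.4. By mean the order was colonic PDGFRα hi FB, SI PDGFRα hi FB, SI Fgfr2+ FB, colonic CD81+ FB, CD90+ FB and Fgfr2+ FB, SI CD34+ FB, SMC, colonic pericytes and SI pericytes. Each neighbouring pair overlapped except SI CD34+ FB and SMC, and all 6 pericyte libraries lay below all 21 FB libraries. Replicate 2 of colonic CD81+ FB stood apart from the other two.

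*Vegfa* in pericytes was lower than in FB in the SI (log2 fold change -3.81 ± 0.57, adjusted p = 1.27e-05) and in the colon (log2 fold change -2.74 ± 0.52, adjusted p = 0.000285). These calls held in all 21 and 24 alternatives. Colonic PDGFRα hi FB had more *Vegfa* than the other colonic FB (log2 fold change 1.63 ± 0.41, adjusted p = 0.0152), and SI CD34+ FB less than the other SI FB (log2 fold change -1.95 ± 0.51, adjusted p = 0.0285). The colonic call was lost without PDGFRα hi FB replicate 2 (1.65, adjusted p = 0.0648) or 3 (1.49, adjusted p = 0.117), with adjusted p from 0.00262 to 0.117 over its alternatives. The CD34+ FB call was lost without CD34+ FB replicate 1 (adjusted p = 0.185), 2 (0.147) or 3 (0.0709) or PDGFRα hi FB replicate 3 (0.0682), over a range of 0.000632 to 0.185. For SI PDGFRα hi FB against the other SI FB, *Vegfa* gave log2 fold change 1.3 ± 0.45, adjusted p = 0.134, which did not pass. Over the 10 population means of log2 CPM, the genes most like *Vegfa* by Pearson r among 12575 were *Kcmf1* (0.989; 0.548), *Gja1* (0.956; 0.905) and *Olfm1* (0.951; 0.672), as a description with no test. The second value in brackets, here and below, is r over the 30 libraries.

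*Vegfb* (chr19:6982473-6987651, minus strand) encodes a ligand of VEGF receptor 1. Its CPM was 77.7, 44.6 and 19.2 in SI pericytes, 22.4, 41.1 and 23.4 in SMC and 0.968, 7.44 and 1.72 in colonic pericytes. SI FB had 14.8, 12.0 and 13.9 in CD34+ FB, 24.9, 31.5 and 1.15 in PDGFRα hi FB and 3.98, 6.32 and 1.73 in Fgfr2+ FB. Colonic FB had 6.95, 10.5 and 71.5 in CD81+ FB, 27.2, 9.83 and 19.1 in PDGFRα hi FB, 10.2, 10.3 and 4.58 in CD90+ FB and 0.723, 8.29 and 21.7 in Fgfr2+ FB. The 3 SI pericyte libraries were all above the 3 colonic ones, but replicate 3 overlapped the SI FB, and replicate 3 of colonic CD81+ FB lay within the range of the SI pericytes. In the order of the means, SI pericytes came first, then colonic CD81+ FB, SMC, SI PDGFRα hi FB, colonic PDGFRα hi FB, SI CD34+ FB, colonic Fgfr2+ FB and CD90+ FB, SI Fgfr2+ FB and colonic pericytes, and every neighbouring pair overlapped.

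Against colonic pericytes, SI pericytes had more *Vegfb* (log2 fold change 3.81 ± 1.12, adjusted p = 0.0415), and against SI FB likewise (log2 fold change 2.21 ± 0.75, adjusted p = 0.0362). The first call was lost without colonic pericyte replicate 1 (3.37, adjusted p = 0.116) or 3 (3.49, adjusted p = 0.111), or SI pericyte replicate 1 (3.21, adjusted p = 0.11) or 2 (3.85, adjusted p = 0.0508), with a replicate block (adjusted p = 0.0525) and with only the 6 pericyte libraries in the model (0.447), over a range of 0.00124 to 0.447. The call against FB was lost without SI pericyte replicate 1 (1.62, adjusted p = 0.23) or 2 (adjusted p = 0.0665), CD34+ FB replicate 1 (0.0561), 2 (0.0583) or 3 (0.0553), or Fgfr2+ FB replicate 1 (0.0509) or 3 (0.0597), over a range of 0.0147 to 0.23. With length-scaled TPM as counts, neither passed (adjusted p = 0.0658 and 0.0642). Colonic pericytes against colonic FB went the other way for *Vegfb* by edgeR (log2 fold change -2.13 ± 0.93, adjusted p = 0.111), which did not pass. It was called by DESeq2 and without colonic pericyte replicate 2. The most similar genes were *Pigb* (0.947; 0.556), *Fam173b* (0.913; 0.353) and *Trpt1* (0.912; 0.545).

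*Vegfc* (chr8:54077606-54187096, plus strand), a ligand of lymphatic growth, was nearly missing from colonic pericytes, where the libraries held 3, 7 and 1 counts, or 0.323, 0.882 and 0.0718 CPM. SI pericytes had 5.37, 92.7 and 11.8 CPM and SMC 53.9, 62.2 and 142. SI FB had 73.1, 39.1 and 55.2 in CD34+ FB, 142, 7.59 and 15.6 in Fgfr2+ FB and 13.1, 10.2 and 0.345 in PDGFRα hi FB. All 3 SI pericyte libraries lay above the colonic ones, yet replicate 2 was far above the other two, as was replicate 1 of SI Fgfr2+ FB. Colonic FB had 59.9, 44.4 and 46.0 in CD90+ FB, 15.8, 42.2 and 48.5 in Fgfr2+ FB, 37.1, 22.7 and 28.9 in CD81+ FB and 15.8, 4.08 and 14.3 in PDGFRα hi FB. From the highest mean down, the order was SMC, SI CD34+ FB, SI Fgfr2+ FB, colonic CD90+ FB, SI pericytes, colonic Fgfr2+ FB, colonic CD81+ FB, colonic PDGFRα hi FB, SI PDGFRα hi FB and colonic pericytes, and only colonic CD81+ FB and PDGFRα hi FB did not overlap as neighbours.

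*Vegfc* was lower in colonic pericytes than in colonic FB (log2 fold change -6.09 ± 1.22, adjusted p = 0.000526), which held in all 24 alternatives, and higher in SI than in colonic pericytes (log2 fold change 6.49 ± 1.3, adjusted p = 0.00359). In 2 of the 3 colonic pericyte libraries the gene had 3 counts or fewer, so these fold changes rest on few counts. The tissue difference of pericytes exceeded the mean of those in Fgfr2+ FB and PDGFRα hi FB by 6.43 ± 1.41 on the log2 scale (adjusted p = 0.011). Without SI pericyte replicate 2 the tissue difference was 4.40, adjusted p = 0.022 and passed, whereas the difference of differences (4.35, adjusted p = 0.0537) did not. The latter was also lost with only the populations compared (adjusted p = 0.071). With only the 6 pericyte libraries in the model the tissue call was lost too (adjusted p = 0.329), while its alternatives ranged from 3.93e-08 to 0.329, and those of the difference of differences from 1.49e-05 to 0.071. For SI PDGFRα hi FB against the other SI FB, edgeR gave *Vegfc* log2 fold change -2.81 ± 0.99, adjusted p = 0.145, which did not pass, while DESeq2 called it. Like *Vegfc* over the population means were *Cyp2j9* (0.971; 0.706), *Dhdh* (0.960; 0.492) and *Bach2* (0.941; 0.650).

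*Vegfd* (chrX:164373378-164402650, plus strand), the other lymphatic ligand, was highest in colonic CD81+ FB at 288, 321 and 145 CPM, followed by SI CD34+ FB at 133, 98.8 and 88.6. The remaining colonic FB had 13.1, 18.7 and 62.7 in Fgfr2+ FB, 26.8, 29.7 and 33.8 in CD90+ FB and 26.2, 9.83 and 38.3 in PDGFRα hi FB, and SI FB 4.96, 18.1 and 18.0 in Fgfr2+ FB and 5.36, 7.90 and 23.8 in PDGFRα hi FB. Colonic CD81+ FB did not overlap SI CD34+ FB, which in turn lay above every library of the other 8 populations. Pericytes had 10.3, 0.253 and 3.45 in the SI and 15.7, 16.3 and 5.39 in the colon, and SMC 8.54, 5.39 and 1.21. The order by mean went on with colonic Fgfr2+ FB, CD90+ FB and PDGFRα hi FB, SI Fgfr2+ FB, colonic pericytes, SI PDGFRα hi FB, SMC and SI pericytes, each overlapping its neighbour. As kallisto divided the reads, the protein-coding transcript held a mean 94.4% of *Vegfd* counts in colonic CD81+ FB and 89.5% in SI CD34+ FB, but 13.6% in SI PDGFRα hi FB and 0.704% in colonic pericytes. The rest lay on a transcript with a retained intron. Counted by the coding transcript alone, the lowest means turned round, with 1.48 CPM in SI pericytes, 1.34 in SMC, 1.14 in SI PDGFRα hi FB and 0.0661 in colonic pericytes.

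*Vegfd* was higher in colonic CD81+ FB than in the other colonic FB (log2 fold change 3.13 ± 0.59, adjusted p = 0.00121), in all 21 alternatives, and higher in SI CD34+ FB than in the other SI FB (log2 fold change 3.04 ± 0.68, adjusted p = 0.00616). The latter call was lost with length-scaled TPM as counts (2.07, adjusted p = 0.119), over a range of 0.000541 to 0.119. SI pericytes had less *Vegfd* than SI FB (log2 fold change -2.51 ± 0.79, adjusted p = 0.0236). This was lost without pericyte replicate 2 (-1.94, adjusted p = 0.0874) or 3 (-2.34, adjusted p = 0.0742) or with only the populations compared (adjusted p = 0.0675), and was -3.85, adjusted p = 0.00622 without replicate 1, the range being 0.0024 to 0.0874. In the colon edgeR gave log2 fold change -1.99 ± 0.74, adjusted p = 0.0579 for the same comparison, which did not pass, while DESeq2 called it (adjusted p = 0.0123), as did 5 more of 24 alternatives, over a range of 0.0123 to 0.244. Its most similar genes were *Xylt1* (0.965; 0.554), *Iah1* (0.962; 0.435) and *Rpn2* (0.961; 0.708).

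**Figure D2:**
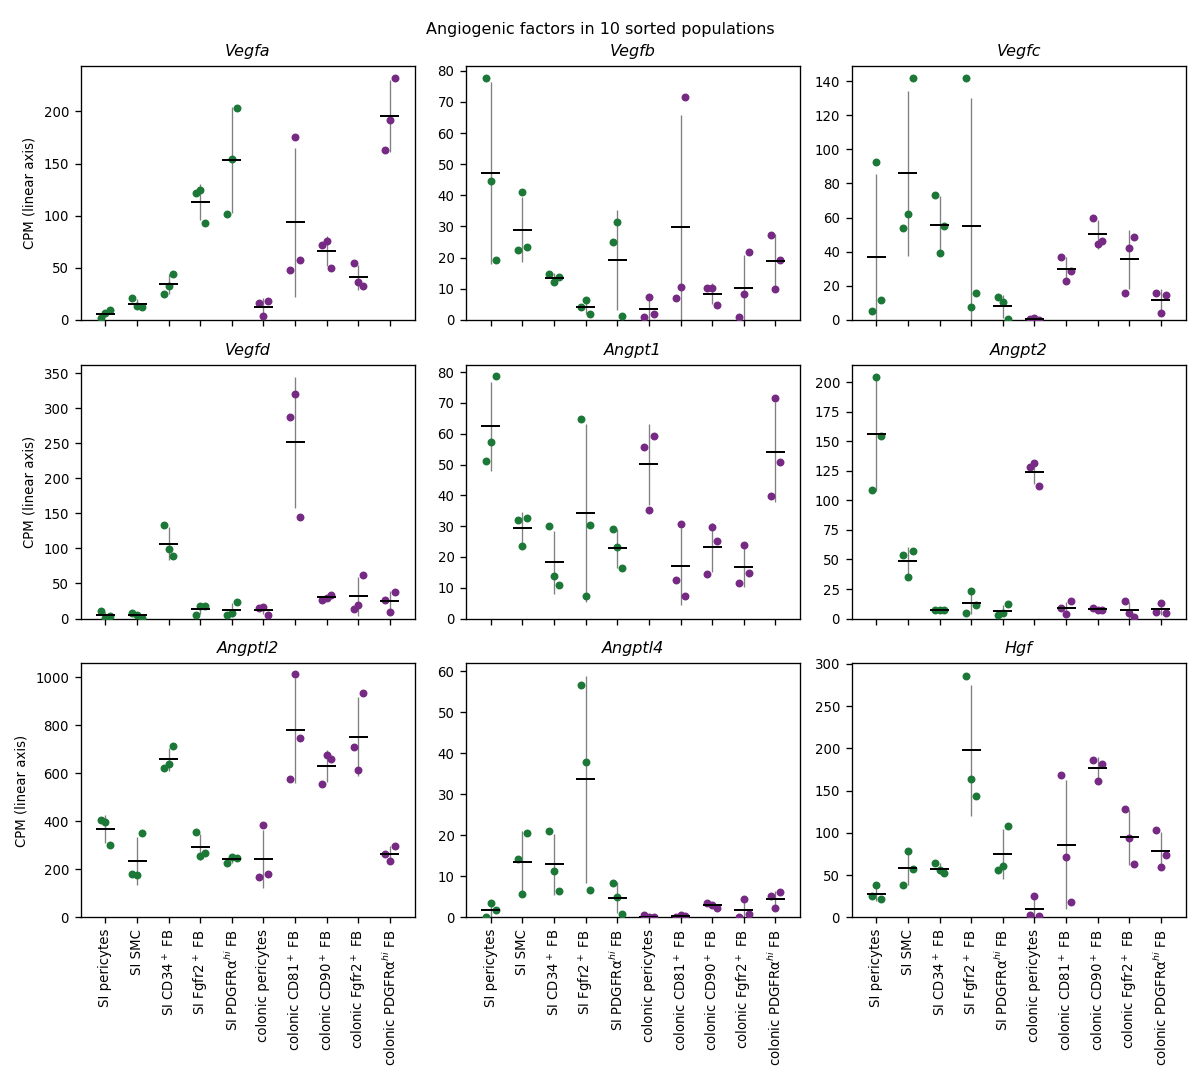
CPM (vertical axis, linear, one panel per gene) of the 9 angiogenic factors in the 10 sorted populations (horizontal axis), with a point for each library, a bar at the mean of 3 and a line of ± 1 SD, SI in green and colon in purple. *Vegfa* is highest in PDGFRα hi FB, *Vegfd* in colonic CD81+ FB at a mean of 251, and *Angpt2* in the pericytes of both tissues at 156 and 124.

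*Angpt2* (chr8:18690263-18741562, minus strand), the context-dependent antagonist of Tie2, separated mural cells from FB. It stood at 108, 205 and 155 CPM in SI pericytes, 128, 131 and 112 in colonic pericytes and 53.7, 35.3 and 57.4 in SMC. The 21 FB libraries ran from 1.67 to 22.9, so that all pericyte libraries lay above all SMC libraries, and these above all FB libraries. Means of FB were 12.9 ± 9.30 (SD, n = 3) in SI Fgfr2+ FB, 9.22 ± 5.2 in colonic CD81+ FB, 7.80 ± 0.985 in CD90+ FB, 7.76 ± 5.0 in colonic PDGFRα hi FB, 7.27 ± 0.349 in SI CD34+ FB, 7.11 ± 7.06 in colonic Fgfr2+ FB and 6.62 ± 4.83 in SI PDGFRα hi FB, with every neighbour overlapping. Pericytes exceeded FB in the SI (log2 fold change 4.19 ± 0.49, adjusted p = 2.01e-07) and in the colon (log2 fold change 3.96 ± 0.44, adjusted p = 8.12e-08), in every alternative. SMC against SI pericytes gave log2 fold change -1.68 ± 0.67, adjusted p = 0.104, and SI against colonic pericytes log2 fold change 0.33 ± 0.65, adjusted p = 0.817, neither of which passed, though DESeq2 called the former (adjusted p = 0.0384). In SI CD34+ FB, *Angpt2* was 4.67% of its SI pericyte level, where *Rgs5* was 12.0% and the pericyte gene *Notch3* 0.112%. Every other FB population had a higher share for *Angpt2* than for *Rgs5*, each relative to the pericytes of its tissue. The *Angpt2* shares ran from 4.25% in SI PDGFRα hi FB (*Rgs5* 0.820%) to 8.26% in SI Fgfr2+ FB (*Rgs5* 5.38%). Other pericyte genes differed: the *Kcnj8* share was above that of *Angpt2* in SI PDGFRα hi FB (207%), colonic PDGFRα hi FB (12.2% beside 6.26%) and colonic Fgfr2+ FB (7.42% beside 5.73%). It was below in the remaining FB, and that of *Jag1* was above only in SI PDGFRα hi FB (4.54%). The part of pericyte RNA in the *Angpt2* of FB was not tested. The gene lies within *Mcph1* on the opposite strand, which itself had counts in every library (3.33 to 73.7 CPM). Whether reads of *Mcph1* were counted for *Angpt2* was not tested. The genes nearest in pattern were *Fhl5* (0.985; 0.909), *Lamc3* (0.981; 0.905) and *Cd200r3* (0.976; 0.863).

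*Angpt1* (chr15:42424723-42676977, minus strand), the activating ligand of Tie2, was spread more evenly. Mean CPM was 62.5 ± 14.4 in SI pericytes, 54.1 ± 16.1 in colonic PDGFRα hi FB, 50.1 ± 13.1 in colonic pericytes, 34.2 ± 28.9 in SI Fgfr2+ FB and 29.4 ± 5.05 in SMC. The lower means were 23.1 ± 7.89 in colonic CD90+ FB, 22.8 ± 6.38 in SI PDGFRα hi FB, 18.3 ± 10.3 in SI CD34+ FB, 16.9 ± 12.3 in colonic CD81+ FB and 16.7 ± 6.44 in colonic Fgfr2+ FB. Every neighbour in this order overlapped. Of its 17 tests, edgeR called 0, DESeq2 1, and 4 had an unadjusted p under 0.05, as had 14.6% of all tests of genes. SI pericytes against FB came nearest (log2 fold change 1.36 ± 0.47, adjusted p = 0.039), under the fold threshold and called in 3 of 21 alternatives, and colonic PDGFRα hi FB against the other colonic FB gave log2 fold change 1.53 ± 0.47, adjusted p = 0.0616. The latter was called in 5 of 21 alternatives: by DESeq2, with RLE or upper-quartile scaling, with only the populations compared and without CD81+ FB replicate 2, over a range of 0.0179 to 0.397. The libraries of colonic PDGFRα hi FB held 39.8, 71.6 and 50.9 CPM, all above those of colonic CD81+ FB, CD90+ FB and Fgfr2+ FB, the highest of which was 30.8. Most like *Angpt1* were *Ubr1* (0.925; 0.604), *Iqcb1* (0.923; 0.598) and *Mylip* (0.917; 0.383).

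*Angptl2* (chr2:33216069-33247717, plus strand), a secreted relative of the angiopoietins that does not bind Tie2, was the most abundant member per kilobase in most populations and fell into 2 tiers. The upper tier held colonic CD81+ FB at 578, 1014 and 748 CPM, colonic Fgfr2+ FB at 711, 613 and 936, SI CD34+ FB at 622, 639 and 714 and colonic CD90+ FB at 555, 676 and 661. In the lower tier, means were 369 ± 59.3 in SI pericytes, 293 ± 55.5 in SI Fgfr2+ FB, 266 ± 31.6 in colonic PDGFRα hi FB, 244 ± 121 in colonic pericytes, 242 ± 14.9 in SI PDGFRα hi FB and 236 ± 99.0 in SMC. Neighbours overlapped within each tier, and all 12 upper libraries lay above all 18 lower ones. Adjusted p was under 0.05 in 5 comparisons, all below the fold threshold: SI CD34+ FB against other SI FB (log2 fold change 1.31 ± 0.26, adjusted p = 0.00195), colonic PDGFRα hi FB against other colonic FB (log2 fold change -1.43 ± 0.28, adjusted p = 0.00126), colonic pericytes against FB (log2 fold change -1.20 ± 0.27, adjusted p = 0.00166), SI against colonic Fgfr2+ FB (log2 fold change -1.36 ± 0.32, adjusted p = 0.018) and the difference of differences of pericytes and FB (log2 fold change 1.35 ± 0.38, adjusted p = 0.0497). Each was called at a fold threshold of 1 and in at most 1 more alternative. *Ralgps1* spans the gene on the opposite strand, at 2.17 to 436 CPM. Whether reads of one gene were counted for the other was not tested. Nearest in pattern were *Arap1* (0.959; 0.707), *Lama2* (0.958; 0.773) and *Ext1* (0.956; 0.784).

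*Angptl4* (chr17:33773750-33781830, minus strand), an inhibitor of lipoprotein lipase that also acts on vessel permeability, was low throughout. SI Fgfr2+ FB had 56.5, 37.9 and 6.58 CPM, SMC 14.1, 5.68 and 20.6, SI CD34+ FB 21.1, 11.4 and 6.34 and SI PDGFRα hi FB 8.44, 4.97 and 0.919. Colonic FB had 5.15, 2.3 and 6.11 in PDGFRα hi FB, 3.45, 3.03 and 2.29 in CD90+ FB, 0, 4.39 and 0.777 in Fgfr2+ FB and 0, 0.631 and 0.333 in CD81+ FB. Pericytes had 0, 3.41 and 1.72 in the SI and 0.538, 0 and 0 in the colon. Libraries of SI Fgfr2+ FB and SI CD34+ FB lay above all libraries of their colonic counterparts Fgfr2+ FB and CD81+ FB, yet the edgeR test gave log2 fold change 4.28 ± 1.47, adjusted p = 0.172 for Fgfr2+ FB and log2 fold change 5.26 ± 1.55, adjusted p = 0.131 for CD34+ FB against colonic CD81+ FB. DESeq2 called both (adjusted p = 0.00938 and 0.00144), within ranges of 0.00938 to 0.423 and 0.00144 to 0.371. DESeq2 also called more of all genes, with 814 against 255 by edgeR in the first comparison and 416 against 133 in the second. It called *Angptl4* in 5 of 17 tests and edgeR in 0. The other 3 were pericytes against FB in the SI (edgeR log2 fold change -2.87 ± 1.27, adjusted p = 0.115; DESeq2 adjusted p = 0.0191) and in the colon (edgeR log2 fold change -3.17 ± 1.37, adjusted p = 0.109; DESeq2 adjusted p = 0.021), and colonic CD81+ FB against the other colonic FB (edgeR log2 fold change -3.08 ± 1.31, adjusted p = 0.228; DESeq2 adjusted p = 0.0385). The order by mean was SI Fgfr2+ FB, SMC, SI CD34+ FB, SI PDGFRα hi FB, colonic PDGFRα hi FB, colonic CD90+ FB, colonic Fgfr2+ FB, SI pericytes, colonic CD81+ FB and colonic pericytes, with every neighbour overlapping. The protein-coding transcript took 36.9, 2.86 and 0% of *Angptl4* counts in the 3 libraries of SI Fgfr2+ FB and 51.6, 77.4 and 68.2% in those of SMC. Counted by this transcript alone, SMC came first, and the CPM values overlapped between SI Fgfr2+ FB (20.9, 1.09 and 0) and colonic Fgfr2+ FB (0, 1.39 and 0.777), and between SI CD34+ FB (5.01, 0.418 and 0.771) and colonic CD81+ FB (0, 0.631 and 0). Genes of most similar pattern were *Gbp8* (0.976; 0.690), *E130309D02Rik* (0.915; 0.465) and *Gbp3* (0.912; 0.615).

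*Hgf* (chr5:16553495-16620152, plus strand) was highest in SI Fgfr2+ FB at 286, 164 and 143 CPM and colonic CD90+ FB at 186, 162 and 182. Other colonic FB had 128, 94.4 and 62.8 in Fgfr2+ FB, 169, 71.5 and 17.9 in CD81+ FB and 104, 59.4 and 74.1 in PDGFRα hi FB, and SI FB 56.0, 60.5 and 109 in PDGFRα hi FB and 64.4, 56.7 and 52.1 in CD34+ FB. All SI Fgfr2+ FB libraries lay above all other SI libraries, while replicate 1 of colonic CD81+ FB reached the level of CD90+ FB. SMC had 38.6, 78.9 and 57.7, SI pericytes 24.9, 38.1 and 21.8 and colonic pericytes 3.23, 25.8 and 1.58. The order by mean was SI Fgfr2+ FB, colonic CD90+ FB, colonic Fgfr2+ FB, colonic CD81+ FB, colonic PDGFRα hi FB, SI PDGFRα hi FB, SMC, SI CD34+ FB, SI pericytes and colonic pericytes, without overlap between colonic CD90+ FB and Fgfr2+ FB or between SI CD34+ FB and SI pericytes.

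*Hgf* was lower in pericytes than in FB in the colon (log2 fold change -3.35 ± 0.68, adjusted p = 0.000576), in every alternative, and in the SI (log2 fold change -1.75 ± 0.61, adjusted p = 0.043). Without colonic pericyte replicate 2 the colonic difference was -5.46, adjusted p = 2.74e-06. The SI call was lost without pericyte replicate 1 (adjusted p = 0.13), 2 (0.061) or 3 (0.117), CD34+ FB replicate 1 (0.0567), 2 (0.0553) or 3 (0.0533), PDGFRα hi FB replicate 3 (0.0659) or Fgfr2+ FB replicate 1 (0.065), and with RLE scaling (0.0503), over a range of 0.00701 to 0.13. SI Fgfr2+ FB against the other SI FB gave log2 fold change 1.59 ± 0.56, adjusted p = 0.199, which did not pass, but was called with only the SI FB in the model, over a range of 0.00876 to 0.614. Its pattern over the means was most like those of *Ghr* (0.964; 0.930), *R3hcc1l* (0.961; 0.537) and *Senp3* (0.959; 0.146), though the mean CPM of *Senp3* was highest in SI pericytes, at 95.7 ± 127.9.

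Per kilobase of transcript, *Angptl2* had the highest mean of the 9 in every population except SI Fgfr2+ FB, SI PDGFRα hi FB and colonic PDGFRα hi FB, where *Vegfa* led. The means in CPM per kilobase were 129.6 ± 34.5 (SD, n = 3) for *Vegfa* and 85.1 ± 10.5 for *Angptl2* in colonic PDGFRα hi FB. In SI PDGFRα hi FB they were 96.6 ± 15.9 and 76.9 ± 4.97, and in SI Fgfr2+ FB 93.4 ± 8.66 and 92.7 ± 17.4, less apart there than their spread. Ranked next after *Angptl2* were *Angpt2* in pericytes (79.4 ± 70.4 in the SI, 38.5 ± 5.04 in the colon), *Vegfc* in SMC (70.6 ± 44.3) and *Vegfd* in colonic CD81+ FB (149 ± 53.0) and SI CD34+ FB (66.6 ± 10.1). *Hgf* came next in colonic CD90+ FB (68.9 ± 5.59) and Fgfr2+ FB (38.7 ± 12.1). These places held without any 1 library, except that without SI pericyte replicate 2 *Vegfb* (44.8) passed *Angpt2* (39.0) there, and without SMC replicate 2 *Vegfc* (85.6) passed *Angptl2* (84.1). In SI Fgfr2+ FB, *Angptl2* led without replicate 2 or 3.

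**Figure D3:**
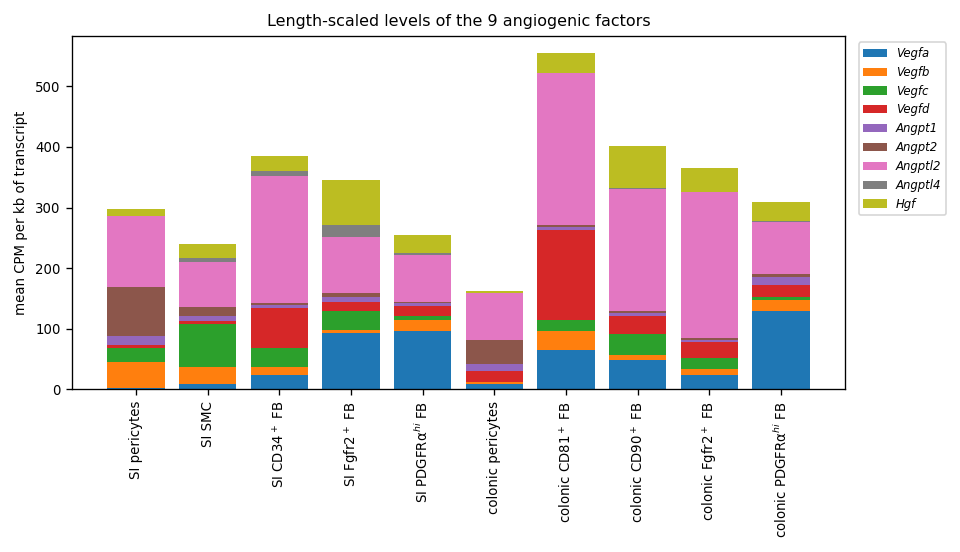
Stacked mean CPM per kilobase of transcript (vertical axis, linear from 0, mean of 3 libraries) of the 9 genes, one bar per sorted population. The sums run from 162 in colonic pericytes to 555 in colonic CD81+ FB, and *Angptl2* is the largest share in most bars.

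Between tissues, SI and colonic pericytes differed in 2 of 9 members, *Vegfb* and *Vegfc*, against 5.72% of all genes. That count was 1 without colonic pericyte replicate 1 or 3, or SI pericyte replicate 1 or 2, and with a replicate block, 3 without colonic pericyte replicate 2, and 0 with only the 6 pericyte libraries in the model. The difference of differences, set against the FB labelled alike in both tissues (Fgfr2+ FB, PDGFRα hi FB), was called for 1 of 9, *Vegfc*, against 3.03% of all genes, and for *Vegfb* it gave log2 fold change 4.45 ± 1.3, adjusted p = 0.0564, called in 5 of 27 alternatives. Its count was 4 without colonic pericyte replicate 2, 2 without colonic Fgfr2+ FB replicate 1 or SI pericyte replicate 3, and 0 without SI pericyte replicate 2 or with only the populations compared. It was also 2 by DESeq2, with length-scaled TPM as counts, with no filter and at a fold threshold of 1. For PDGFRα hi FB of both tissues, edgeR called 0 of 9 members (0.963% of all genes, with 0 at an unadjusted p under 0.05, as had 6.53% of all genes, and 0 by DESeq2). The count for Fgfr2+ FB of both tissues was also 0 (1.45% of all genes, with 3 at an unadjusted p under 0.05, as had 12.6% of all genes, and 1 by DESeq2), and 1 without SI Fgfr2+ FB replicate 1 or at a fold threshold of 1. SI CD34+ FB against colonic CD81+ FB gave 0 (0.758% of all genes, with 2 at an unadjusted p under 0.05, as had 9.52% of all genes, and 1 by DESeq2) and against colonic CD90+ FB 0 (0.353% of all genes, with 2 at an unadjusted p under 0.05, as had 4.53% of all genes, and 0 by DESeq2). With only the populations compared, the latter was 3, *Vegfd*, *Angptl4* and *Hgf*. Whether the tissue difference itself was another in Fgfr2+ FB than in PDGFRα hi FB was tested too, with 0 called (0.661% of all genes, with 4 at an unadjusted p under 0.05, as had 7.86% of all genes, and 0 by DESeq2). These comparisons share libraries and are not independent of each other. The gates of Fgfr2+ FB and PDGFRα hi FB differed between tissues, Fgfr2+ FB being CD34- in the SI and CD34+ in the colon. In comparisons that use these FB, gate and tissue cannot be told apart.

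Within a tissue, 2 of 9 members were called for SI CD34+ FB against the other SI FB, *Vegfd* and *Vegfa*, against 2.72% of all genes. The count was 1 without any 1 of the CD34+ FB libraries or PDGFRα hi FB replicate 3 or with length-scaled TPM as counts, and 3 at a fold threshold of 1. Colonic CD81+ FB had 1 of 9, *Vegfd*, against 3.44% of all genes (2 by DESeq2), and colonic PDGFRα hi FB 1 of 9, *Vegfa*, against 3.51%. The latter was 2 by DESeq2, with RLE or upper-quartile scaling, with only the populations compared, at a fold threshold of 1 and without CD81+ FB replicate 2, and 0 without PDGFRα hi FB replicate 2. No member was called by edgeR for SI PDGFRα hi FB (3.38% of all genes, with 4 at an unadjusted p under 0.05, as had 11.1% of all genes, and 1 by DESeq2) or SI Fgfr2+ FB (1.24% of all genes, with 2 at an unadjusted p under 0.05, as had 12.3% of all genes, and 0 by DESeq2), the latter being 1, *Hgf*, with only the populations compared. In the colon the count was 0 for CD90+ FB (0.0798% of all genes, with 0 at an unadjusted p under 0.05, as had 5.34% of all genes, and 0 by DESeq2) and 0 for Fgfr2+ FB (0.12% of all genes, with 2 at an unadjusted p under 0.05, as had 6.46% of all genes, and 0 by DESeq2). SMC against SI pericytes likewise gave 0 (10.1% of all genes, with 4 at an unadjusted p under 0.05, as had 26.0% of all genes, and 1 by DESeq2), the DESeq2 call being *Angpt2*, and *Vegfa* was called with length-scaled TPM as counts. Across the 17 comparisons, 16 of 153 tests of members were called (10.5%), against 4.12% over all genes. As the members were chosen with earlier results of these data known, such shares are a description and no test of the set.

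Of the receptors for these ligands, the signalling VEGF receptors *Flt1*, *Kdr* and *Flt4* were low. *Kdr*, the main receptor of VEGF-A on endothelium, had 0.255 to 8.58 CPM over all 30 libraries, *Flt4* 0 to 8.97, and *Flt1* 0.230 to 44.7, its highest value being replicate 3 of SI pericytes. The co-receptors *Nrp1* and *Nrp2* were abundant by contrast. *Nrp1* was 472, 664 and 229 CPM in SI pericytes and 471, 412 and 227 in colonic pericytes, but 63.4, 69.9 and 116 in SMC. PDGFRα hi FB had 59.2, 54.5 and 84.3 in the SI and 80.2, 85.4 and 92.7 in the colon, below both groups of pericytes. It was lower in PDGFRα hi FB than in the other FB of the SI (log2 fold change -2.12 ± 0.43, adjusted p = 0.00196) and of the colon (log2 fold change -1.65 ± 0.40, adjusted p = 0.0119), and lower in SMC than in SI pericytes (log2 fold change -2.46 ± 0.46, adjusted p = 0.000547). *Nrp2* was lower in SI than in colonic Fgfr2+ FB (log2 fold change -2.20 ± 0.44, adjusted p = 0.00469). These were the 4 of 85 tests called for 5 genes over the 17 comparisons, against 4.12% over all genes. In pericytes against FB the list medians were 0.47 in the SI and 0.80 in the colon, beside -0.02 and 0.01 for all genes.

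*Tek*, which encodes Tie2, differed between the pericytes of both tissues. It was 194, 64.1 and 73.5 CPM in SI pericytes and 0, 0.756 and 0.0718 in colonic pericytes, while colonic CD81+ FB had 323, 331 and 266 and SI CD34+ FB 55.6, 47.1 and 37.8. No library of colonic pericytes reached 1 CPM, and colonic CD81+ FB lay above all others. The tissue difference of pericytes was called (log2 fold change 8.74 ± 1.00, adjusted p = 4.73e-06), as were the higher levels in colonic CD81+ FB than in other colonic FB (log2 fold change 3.78 ± 0.51, adjusted p = 1.85e-05) and in SI CD34+ FB than in other SI FB (log2 fold change 3.76 ± 0.59, adjusted p = 0.000105). With only the 6 pericyte libraries in the model, 0 genes were called between tissues, so this *Tek* call was lost. Against FB, *Tek* was higher in SI pericytes (log2 fold change 3.75 ± 0.51, adjusted p = 3.11e-06) and lower in colonic pericytes (log2 fold change -7.38 ± 0.92, adjusted p = 5.62e-07), and this difference of differences, taken with Fgfr2+ FB and PDGFRα hi FB, was itself called (log2 fold change 11.41 ± 1.15, adjusted p = 9.56e-07). Fold changes against colonic pericytes rest on few counts, as 1 of those libraries held 0 counts. *Tie1* was higher in pericytes than in FB in the SI (log2 fold change 3.51 ± 0.61, adjusted p = 0.000108) and in the colon (log2 fold change 1.78 ± 0.59, adjusted p = 0.0327). For both genes, 12 of 34 tests were called, 35.3%, against 4.12% over all genes.

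Because *Tek* and *Tie1* also mark blood endothelium, the 10 markers of that list were summed. The sums were 377, 282 and 190.2 CPM in SI pericytes, 111, 88.1 and 86.2 in colonic pericytes and 389, 381 and 325 in colonic CD81+ FB. *Tek* was the most abundant gene in SI pericytes (110.5 CPM) and in colonic CD81+ FB (307), and *Pecam1* in colonic pericytes (49.5). *Cldn5* had no count in pericytes of either tissue, and *Pecam1*, which encodes CD31, had 29.4 to 165 CPM over all libraries although CD31+ cells had been gated out. Without *Tek*, the other 9 summed to 183, 218 and 117 CPM in SI pericytes, 111, 87.3 and 86.1 in colonic pericytes and 65.9, 49.1 and 59.0 in colonic CD81+ FB. Each such sum of the SI pericytes was above each of the colonic pericytes, as were *Vegfb* and *Vegfc*, and the part of endothelial RNA was not tested. Lymphatic endothelial markers (6 genes) summed to 0, 13.1 and 14.5 CPM in SI and 3.76, 107 and 48.6 in colonic pericytes, with *Lyve1* most abundant and *Ccl21a* and *Mmrn1* at 0 in the SI.

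Other marker sums also differed among the pericyte libraries. Immune markers (9 genes, *Cd68* most abundant) gave 444, 106 and 114 CPM in SI and 103, 176 and 61.1 in colonic pericytes, where *C1qa* and *Cd3e* had no count. Smooth muscle markers (8 genes, *Myh11* most abundant in the colon) gave 5842, 4161 and 4167 and 10986, 12283 and 12496. Each smooth muscle sum of the colonic pericytes was above each of the SI pericytes, and the part of either list in the tissue differences was not tested. Epithelial markers (7 genes) summed to 0.215, 30.2 and 0.861 in SI and 0, 32.5 and 0.0718 in colonic pericytes, so that replicate 2 of each stood apart, *Epcam* being at 0 in both. Glial markers (5 genes) gave 56.9, 18.1 and 19.9 and 44.2, 18.7 and 17.2, and mesothelial markers (3 genes) 9.88, 0.505 and 0.984 and 2.04, 0.882 and 0.790. Markers of interstitial cells of Cajal (3 genes) reached 1159, 584 and 742 and 808, 901 and 687, nearly all *Ano1*. Fibroblast markers (6 genes) were 3936, 3086 and 2634 in SI and 1749, 1877 and 1854 in colonic pericytes. Over the 17 comparisons, calls numbered 12 of 136 tests for the immune list, 16 of 153 for blood endothelium and 3 of 102 for lymphatic endothelium, against 4.12% over all genes.

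*Met*, the HGF receptor, was found mainly in SMC, at 143, 213 and 133 CPM, and did not exceed 7.74 CPM in any library of the other 9 populations. It was higher in SMC than in SI pericytes (log2 fold change 7.14 ± 1.3, adjusted p = 0.000343). *Plau*, the urokinase that can activate HGF, was 133, 168 and 105 CPM in PDGFRα hi FB of the colon and 21.3, 15.5 and 27.2 in those of the SI. Both were above the other FB of their tissue, in the colon (log2 fold change 4.73 ± 0.58, adjusted p = 2.08e-06) and in the SI (log2 fold change 2.72 ± 0.65, adjusted p = 0.0103). *Plat*, another plasminogen activator, was lower in SI pericytes than in FB (log2 fold change -2.36 ± 0.61, adjusted p = 0.00606). With 8 genes tested, the list of HGF receptor, activators and inhibitors had 6 of 136 tests called (4.12% over all genes), with medians in pericytes against FB of 0.23 in the SI and -1.11 in the colon, where those of all genes were -0.02 and 0.01.

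VEGF-C and VEGF-D are cleaved outside the cell before they act in full. Of 6 genes for this processing, 4 were called between colonic pericytes and FB and 1 in the SI, where 16% and 16.6% of all genes were, with list medians of -2.34 and -1.12 beside 0.01 and -0.02 for all genes. *Ccbe1*, a cofactor of VEGF-C cleavage, was 3.66, 4.79 and 3.59 CPM in colonic pericytes, 3.65, 10.2 and 36.4 in SI pericytes and 132, 116 and 149 in SMC. *Adamts14*, a protease, was 0.430, 0.252 and 1.01 in colonic and 50.5, 15.5 and 39.0 in SI pericytes. *Pcsk5*, a proprotein convertase, was 10.8, 3.91 and 41.2 and 112, 54.7 and 56.6, against 617, 717 and 839.8 in colonic CD81+ FB. Each of the 3 colonic pericyte libraries had the lower *Adamts14* and *Pcsk5*, whereas *Ccbe1* overlapped between the tissues. Colonic pericytes were below FB in *Adamts14* (log2 fold change -5.77 ± 0.73, adjusted p = 6.68e-07), *Pcsk5* (log2 fold change -3.96 ± 0.52, adjusted p = 1.39e-06) and *Ccbe1* (log2 fold change -2.68 ± 0.63, adjusted p = 0.00264). Between the pericytes of both tissues, *Adamts14* (log2 fold change 5.87 ± 0.77, adjusted p = 3.57e-05) and *Pcsk5* (log2 fold change 1.99 ± 0.52, adjusted p = 0.0239) were called, higher in the SI, but 0 genes were with only the 6 pericyte libraries in the model. Over all comparisons, 13 of 102 tests were called, against 4.12% over all genes.

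Among 6 other ligands of these families, 9 of 102 tests were called (4.12% over all genes), the medians in pericytes against FB being -1.56 in the SI and 0.62 in the colon. *Angptl1* was 228, 277 and 169 CPM in SI PDGFRα hi FB, 170.4, 139.8 and 168 in SI CD34+ FB, 101, 105 and 169 in SMC and 37.1, 41.4 and 93.8 in SI Fgfr2+ FB. In the colon CD81+ FB had 111, 123 and 204, whereas PDGFRα hi FB had 1.23, 0.128 and 5.84 and Fgfr2+ FB 0, 0.195 and 0.555. The SI exceeded the colon in Fgfr2+ FB (log2 fold change 7.80 ± 1.23, adjusted p = 0.000348) and in PDGFRα hi FB (log2 fold change 6.55 ± 1.11, adjusted p = 0.000702), and colonic CD81+ FB the other colonic FB (log2 fold change 7.52 ± 0.72, adjusted p = 1.26e-07). Placental growth factor (*Pgf*), a ligand of VEGF receptor 1, was 21.4, 2.65 and 39.4 in colonic and 0, 5.56 and 11.0 in SI pericytes, and higher in colonic pericytes than in FB (log2 fold change 4.41 ± 0.91, adjusted p = 0.000768).

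Of 8 other angiogenic ligands, 4 were called in SI pericytes against FB and 5 in the colon, where 16.6% and 16% of all genes were, and 22 of 136 tests over the 17 comparisons, where 4.12% were (list medians 0.12 and -1.63, all genes -0.02 and 0.01). The Notch ligand *Jag1* was 626, 351 and 402 CPM in SI and 419, 525 and 703 in colonic pericytes, and called higher than in FB (log2 fold change 5.19 ± 0.34, adjusted p = 4.97e-12, and log2 fold change 4.78 ± 0.31, adjusted p = 1.71e-12). The chemokine *Cxcl12* was 9.45, 18.9 and 6.89 in SI and 131, 168 and 171 in colonic pericytes and called lower in the SI (log2 fold change -3.73 ± 0.38, adjusted p = 7.54e-07), a call lost with only those 6 libraries in the model. *Efnb2*, an ephrin ligand known from arterial endothelium, was 526, 436 and 369 in PDGFRα hi FB of the SI and 349.7, 233 and 417 in those of the colon, above the other FB of the SI (log2 fold change 4.11 ± 0.57, adjusted p = 1.25e-05) and the colon (log2 fold change 3.41 ± 0.49, adjusted p = 2.51e-05). PDGFRα hi FB of both tissues, where *Vegfa* was highest, were also the FB highest in *Efnb2*. Of 8 angiogenesis inhibitors, 4 and 3 were called in SI and colonic pericytes against FB, and 30 of 136 tests in all, beside the same shares of all genes, with list medians of 0.03 and 0.98. *Thbs2*, a thrombospondin, was 0.215, 0.126 and 0.984 CPM in SI and 6.02, 22.8 and 2.80 in colonic pericytes, against 468, 305 and 459.6 in SI Fgfr2+ FB. *Serpinf1*, which encodes PEDF, was 341, 449 and 349 in colonic CD81+ FB and 232, 149.8 and 176 in SI CD34+ FB, higher than in the other FB of each tissue (log2 fold change 2.95 ± 0.66, adjusted p = 0.00623, and log2 fold change 3.87 ± 0.77, adjusted p = 0.0019). These populations were also those with the highest *Vegfd*.

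*Vegfa* and *Angptl4* are known targets of hypoxia, and *Angptl4* of PPARs, so genes of both responses were counted. Of 15 hypoxia-responsive genes, 4 were called in SI and 4 in colonic pericytes against FB, where 16.6% and 16% of all genes were, with medians of -0.64 and -0.56 beside -0.02 and 0.01 for all genes, and 21 of 255 tests over the 17 comparisons, where 4.12% of all genes were. In SI pericytes the glycolytic *Pgk1* was lower (log2 fold change -3.23 ± 0.72, adjusted p = 0.00172) and the carbonic anhydrase *Car9* higher (log2 fold change 2.73 ± 0.81, adjusted p = 0.0176). Of 14 PPAR-responsive genes, 2 and 3 were called in the same comparisons, and 25 of 238 tests over all, beside those shares of all genes, with medians of 0.19 and -0.56. Between SI and colonic Fgfr2+ FB, where *Angptl4* was 56.5, 37.9 and 6.58 and 0, 4.39 and 0.777 CPM, the median of the 14 PPAR-responsive genes was 0.21 and that of all genes -0.01. Whether either response had a part in the levels of *Vegfa* or *Angptl4* was not tested.

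*Vegfa* and *Hgf* were both lower in pericytes than in FB of both tissues, and the 250 bases before their starts are shown for that reason, from RefSeq (GRCm38.p6), 5′ to 3′. RefSeq entries matched 6 of the 9 members: *Vegfa*, *Vegfb*, *Vegfc*, *Vegfd*, *Angptl2* and *Hgf*. The *Vegfa* window is chr17:46032378-46032627 on the minus strand, and that of *Hgf* chr5:16553245-16553494 on the plus strand. Capitals mark GC boxes.
Vegfa: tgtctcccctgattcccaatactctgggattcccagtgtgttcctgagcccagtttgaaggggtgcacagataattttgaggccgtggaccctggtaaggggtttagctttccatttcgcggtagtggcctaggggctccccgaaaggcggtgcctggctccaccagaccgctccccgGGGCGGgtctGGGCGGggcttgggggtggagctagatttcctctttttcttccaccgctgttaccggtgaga
Hgf: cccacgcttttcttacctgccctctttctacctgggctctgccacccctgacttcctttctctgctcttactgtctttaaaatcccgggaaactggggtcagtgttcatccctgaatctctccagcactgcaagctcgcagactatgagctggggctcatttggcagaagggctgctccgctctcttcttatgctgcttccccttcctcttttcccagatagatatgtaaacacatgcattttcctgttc
The motifs searched on both strands were the core of the hypoxia response element (ACGTG, or CACGT), the GC box (GGGCGG, or CCGCCC) and the TATA box (TATAAA, or TTTATA). This *Vegfa* window held 2 GC boxes and neither of the others, and that of *Hgf* held none of the 3. RefSeq gives a second start for each. The second *Vegfa* window, chr17:46025164-46025413 on the minus strand, held 1 hypoxia core and 1 GC box, and the second *Hgf* window, chr5:16553651-16553900 on the plus strand, none of the 3. Both second windows lie inside the span of their gene, so a motif there may fall in transcribed sequence. Of 32851 promoter windows of the same length, 16.6% held the hypoxia core, 32.7% a GC box and 12.4% a TATA box. G or C made up 59.2% of the *Vegfa* window and 50.8% of that of *Hgf*.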

How the data were processed

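RNA of 30 sorted libraries was sequenced from Ovation Ultralow V2 kit libraries, and the authors deposited, for each transcript, estimated counts, TPM (length-scaled transcript abundances) and effective lengths. The submitters' processing notes name Trim Galore 0.4.0, FastQC 0.11.2 and kallisto 0.42.5 with mm10 (GRCm38). Of 98492 transcripts, 97116 matched GENCODE M21, holding 97.8 to 99.2% of a library's counts; 1 transcript alone held 14.8 to 55.9% of its TPM. Estimated counts were summed to 32316 genes by symbol and rounded to whole numbers. No 2 libraries had identical counts. R 4.3.3 and edgeR 4.0.16 (TMM scaling, quasi-likelihood test) fitted 1 model of 10 populations to 17542 genes holding 6 or more counts in 3 or more libraries. Log2 CPM used a prior count of 2. All 17 comparisons were adjusted by Benjamini-Hochberg over these genes. FB means weight populations equally. CPM per kilobase divides by effective length.

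The members and lists were chosen with earlier results of these data known. Beside the 9 members, the text names at most the 3 called genes of largest fold change per list and comparison, the markers and receptors shown to set levels beside them, and for each member the 3 genes of highest Pearson r among genes with a mean of at least 10 CPM in some population. Alternatives were DESeq2 1.42.0, RLE and upper-quartile scaling, other filters, length-scaled TPM counts, only the populations compared, a replicate block, a log2 fold threshold of 1, and leaving out each library. The procedure was run on simulated data with the same spread in all populations, which cannot show how it fares with the unequal spreads of these libraries.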

Additional observations from a re-analysis of the deposited data

Results flagged for a closer look

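A difference between tissues stood out for *Vegfc*. Its SI minus colon difference in pericytes exceeded the mean of that in PDGFRα hi FB and Fgfr2+ FB by 6.43 on the log2 scale (adjusted p = 0.011, edgeR), a test of the difference itself. The pericyte libraries held 5.37, 92.7 and 11.8 CPM in the SI and 0.323, 0.882 and 0.0718 in the colon. Without SI pericyte replicate 2 the value was 4.35, adjusted p = 0.0537, and with only the populations compared the call was lost too (adjusted p = 0.071). Over all alternatives the adjusted p ran from 1.49e-05 to 0.071.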

How the results depend on the processing

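The members called changed with the processing as follows, each count with the main count in brackets where it is first given. By DESeq2 they were 1 for SI against colonic Fgfr2+ FB (0), 1 for SI CD34+ FB against colonic CD81+ FB (0), 6 for SI pericytes against FB (5), 7 for colonic pericytes against FB (4), 1 for SMC against SI pericytes (0), 1 for SI PDGFRα hi FB (0), 2 for colonic CD81+ FB (1), 2 for colonic PDGFRα hi FB (1) and 2 for the difference of pericytes and FB between tissues (1). With length-scaled TPM counts they were 4 for SI pericytes against FB, 1 for SMC against SI pericytes, 1 for SI CD34+ FB (2) and 2 for the difference of pericytes and FB between tissues, and *Vegfa* replaced *Vegfb* among the 2 for SI against colonic pericytes. With a log2 fold threshold of 1 they were 1 for SI against colonic Fgfr2+ FB, 6 for SI pericytes against FB (*Angpt1* gained), 5 for colonic pericytes against FB, 3 for SI CD34+ FB, 2 for colonic PDGFRα hi FB and 2 for the difference of pericytes and FB between tissues, where *Angptl2* was gained in all but SI pericytes. RLE and upper-quartile scaling gave 2 for colonic PDGFRα hi FB, RLE 4 for SI pericytes against FB (*Hgf* lost), upper-quartile 5 for colonic pericytes against FB, and no filter 5 there and 2 for the difference of pericytes and FB between tissues. With only the populations compared they were 0 for SI against colonic pericytes (2), 4 for SI pericytes against FB (*Vegfd* lost), 5 for colonic pericytes against FB, 3 for SI CD34+ FB against colonic CD90+ FB (0), 1 for SI Fgfr2+ FB (0), 2 for colonic PDGFRα hi FB and 0 for the difference of pericytes and FB between tissues. The stricter filter changed none. The cause was not tested.

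Leaving out 1 library gave 1 to 3 for SI against colonic pericytes, 0 to 1 for SI against colonic Fgfr2+ FB, 2 to 5 for SI pericytes against FB, 4 to 6 for colonic pericytes against FB, 1 to 2 for SI CD34+ FB, 0 to 2 for colonic PDGFRα hi FB and 0 to 4 for the difference of pericytes and FB between tissues. With a replicate block, SI against colonic pericytes gave 1 member. Deviations of libraries with the same replicate number in different populations correlated at a mean of 0.0075, over 0.1 in 1 of 135 pairs. This does not show whether libraries of the same number shared a mouse, and the paper describes SI and colonic subsets sorted from the same mice. None of the 16 called tests of members changed direction in any alternative, and of the 137 others 37 did in some. *Angptl4* had no test between pericytes of both tissues with only those populations. Of 450 alternative values of the levels, 449 moved by less than 1 SD.

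Counts of all genes called are given where they differed by more than 1.5 times. By DESeq2, beside the edgeR count, they were 2407 (1003) for SI against colonic pericytes, 403 (169) for SI against colonic PDGFRα hi FB, 814 (255) for SI against colonic Fgfr2+ FB, 416 (133) for SI CD34+ FB against colonic CD81+ FB, 186 (62) for SI CD34+ FB against colonic CD90+ FB, 2941 (1779) for SMC against SI pericytes, 634 (217) for SI Fgfr2+ FB, 891 (593) for SI PDGFRα hi FB, 910 (604) for colonic CD81+ FB, 80 (14) for colonic CD90+ FB, 97 (21) for colonic Fgfr2+ FB, 367 (116) for the difference of PDGFRα hi FB and Fgfr2+ FB between tissues and 1688 (532) for the difference of pericytes and FB between tissues. With only the populations compared they were 0 (1003) for SI against colonic pericytes, 406 (169) for SI against colonic PDGFRα hi FB, 546 (62) for SI CD34+ FB against colonic CD90+ FB, 390 (1779) for SMC against SI pericytes, 526 (217) for SI Fgfr2+ FB, 43 (14) for colonic CD90+ FB, 38 (21) for colonic Fgfr2+ FB, 201 (116) for the difference of PDGFRα hi FB and Fgfr2+ FB between tissues and 196 (532) for the difference of pericytes and FB between tissues. Without the filter they were 217 (133) for SI CD34+ FB against colonic CD81+ FB, 49 (14) for colonic CD90+ FB and 88 (21) for colonic Fgfr2+ FB. Leaving out 1 library gave 616 to 1711 (1003) for SI against colonic pericytes, 108 to 122 (169) for SI against colonic PDGFRα hi FB, 162 to 221 (255) for SI against colonic Fgfr2+ FB, 73 to 152 (133) for SI CD34+ FB against colonic CD81+ FB, 26 to 44 (62) for SI CD34+ FB against colonic CD90+ FB, 103 to 192 (217) for SI Fgfr2+ FB, 3 to 25 (14) for colonic CD90+ FB, 11 to 27 (21) for colonic Fgfr2+ FB, 406 to 601 (615) for colonic PDGFRα hi FB, 63 to 97 (116) for the difference of PDGFRα hi FB and Fgfr2+ FB between tissues and 417 to 1189 (532) for the difference of pericytes and FB between tissues.

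Limits: 3 libraries per population, with a biological coefficient of variation from 0.226 in SI CD34+ FB to 1.23 in SI pericytes, share 1 estimate of spread per gene, and a left-out library assumes the remaining pair varies like the other groups. Estimated counts divide reads among overlapping transcripts, and low members such as *Angptl4* rest on few counts.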
